A study of Mus musculus with 27 samples.

Results

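*Arntl*, which encodes BMAL1, and *Npas2*, which encodes a partner of BMAL1, were lower in the ileal epithelium of mice given 1 µg/kg TCDD or more, while *Clock*, which encodes its other partner, stayed close to its vehicle level. These 3 genes form the activating limb of the circadian clock and are 3 of 46078 genes counted in each mouse. They were found by their Ensembl identifiers, and all 3 passed the filter on low counts, as did 16741 genes in all. The genes were selected on their count values at each dose against vehicle in these same mice, so their levels and fold changes are described and not tested. The samples were scrapings of distal ileal epithelium from 27 male C57BL/6 mice at postnatal day 56. They formed 9 groups of 3, gavaged at 4 d intervals over 28 d with sesame oil vehicle or with TCDD in the same oil, in 8 doses from 0.01 µg/kg (then 0.03 and 0.1 µg/kg) up to 30 µg/kg (after 0.3, 1, 3 and 10 µg/kg). TCDD (2,3,7,8-tetrachlorodibenzo-*p*-dioxin) is a persistent ligand of the aryl hydrocarbon receptor, AhR. Mice were kept under a light/dark cycle, co-housed and fasted before collection, and neither the cage nor the collection time of each mouse is given in the sources used here.

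BMAL1 binds DNA as a heterodimer with CLOCK or with NPAS2, at E-boxes, and activates the *Per*, *Cry*, *Nr1d1*, *Nr1d2* and *Dbp* genes. PER and CRY proteins inhibit the heterodimer, and the nuclear receptors REV-ERBα and REV-ERBβ (*Nr1d1* and *Nr1d2*) repress *Arntl*, which the ROR receptors activate through the same elements. Transcripts of *Arntl* and of many, though not all, of the genes it activates therefore peak at nearly opposite times of day in most tissues. The intestinal epithelium has such a clock, which responds to feeding time. BMAL1, CLOCK and NPAS2 belong to the bHLH-PAS family, as do AhR and its partner ARNT.

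In GRCm38, *Arntl* (ENSMUSG00000055116) lies on the plus strand at chr7:113207465-113314126, *Clock* (ENSMUSG00000029238) on the minus strand at chr5:76209868-76304792 and *Npas2* (ENSMUSG00000026077) on the plus strand at chr1:39193731-39363236. The exons of *Arntl* shared 33 of 7523 bases with an antisense gene, and those of *Clock* and *Npas2* shared 0. None of their 50-base stretches occurred in transcripts of another gene, so reads of the 3 genes could be told from each other. RefSeq promoter windows of 300 bases (250 before to 50 after a start, GRCm38.p6) matched all 3 genes, with 2 windows for *Arntl*, 3 for *Clock* and 1 for *Npas2*. The windows below are shown because 2 of the 3 genes differed with dose and the third did not. They are chr7:113207261-113207560 (plus strand) for *Arntl*, chr1:39194022-39194321 (plus strand) for *Npas2* and chr5:76304743-76305042 (minus strand) for *Clock*. Capitals mark matches on either strand to the E-box CACGTG, the half-site AGGTCA bound by REV-ERB and ROR proteins, its variants TAGGTCA and TAGGTNA, the D-box TTATGNAA or the AhR core GCGTG.
*Arntl*, second start: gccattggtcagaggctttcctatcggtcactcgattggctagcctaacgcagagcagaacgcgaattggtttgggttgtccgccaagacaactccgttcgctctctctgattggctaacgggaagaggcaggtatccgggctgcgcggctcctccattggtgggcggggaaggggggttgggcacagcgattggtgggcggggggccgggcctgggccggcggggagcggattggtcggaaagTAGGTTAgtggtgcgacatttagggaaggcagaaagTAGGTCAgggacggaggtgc
*Npas2*: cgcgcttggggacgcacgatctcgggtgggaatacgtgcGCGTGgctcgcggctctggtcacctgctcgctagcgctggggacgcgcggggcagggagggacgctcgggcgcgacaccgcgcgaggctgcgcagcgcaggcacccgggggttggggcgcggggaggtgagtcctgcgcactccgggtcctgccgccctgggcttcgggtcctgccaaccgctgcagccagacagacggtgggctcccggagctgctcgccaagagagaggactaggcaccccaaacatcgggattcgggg
*Clock*, first start: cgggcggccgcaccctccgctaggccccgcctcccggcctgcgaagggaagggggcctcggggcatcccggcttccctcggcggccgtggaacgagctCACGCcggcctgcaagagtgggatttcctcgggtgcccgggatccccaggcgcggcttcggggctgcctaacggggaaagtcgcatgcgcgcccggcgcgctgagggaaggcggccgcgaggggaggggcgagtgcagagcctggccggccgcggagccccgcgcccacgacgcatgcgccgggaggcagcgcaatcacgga

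The *Arntl* window held 1 AGGTCA half-site, 31 bases into the transcript when the preceding T is counted (TAGGTCA), and a second match to the looser TAGGTNA 6 bases before the start, which was the 1 match in the other *Arntl* window. AGGTCA occurred in 16.3% of 32851 promoter windows, TAGGTCA in 2.61% and TAGGTNA in 8.29%. TAGGTNA was added after the *Arntl* window had been seen, and TAGGTCA and TAGGTNA overlap AGGTCA or each other. The *Npas2* window held 1 AhR core, 211 bases before the start, and no match to the other motifs, and the first *Clock* window held 1 AhR core, 152 bases before the start. The AhR core occurred in 32.4% of all windows. The second *Clock* window held 2 AhR cores, the third held 1 AGGTCA, and no window of the 3 genes held the E-box or the D-box, which occurred in 7.15% and 3.38% of all windows. A match describes the letters and is not a measured binding site.

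Reads counted on genes numbered 12.26 M to 17.14 M per mouse (M, 1000000 reads). *Cyp1a1*, the classical AhR target gene, had 0 to 3 counts in vehicle mice and passed the test given later from 1 µg/kg, with 59 to 103 counts at that dose and 14821 to 27996 at 30 µg/kg. One library stood apart in its clock genes. Mouse 14 (0.01 µg/kg, replicate 3) had levels of most clock genes like those of mice given 1 µg/kg or more, with 0 counts of *Cyp1a1*. The log2 fold changes of *Arntl* and *Npas2* at 0.01 µg/kg and the counts over lists are therefore given with and without it. Correlations, and DESeq2 calls at 0.01 µg/kg, are given with it only. Library indices recurred, with a first use in 16 mice and a second use, by mouse number, in 11. The first set held vehicle to 0.3 µg/kg and 1 mouse of 1 µg/kg (mouse 41), and the second held the other mice of 1 µg/kg and all of 3, 10 and 30 µg/kg, so that dose and index use are confounded, and cannot be told apart, outside the 1 µg/kg group. Ileal enterocyte markers summed to 6692 to 7166 CPM (counts per 1000000, scaled by TMM) in vehicle mice, against 5931 to 7820 CPM at 30 µg/kg, where 1 of the 5 markers rose and 1 fell by the edgeR test used later, and *Fabp6*, the bile acid binding protein of the ileum, had 5828 to 29698 counts per mouse.

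The mean level of *Arntl* was lower at each dose step from 0.1 to 30 µg/kg. Vehicle mice had 56.7, 65.3 and 59.1 CPM (mean 60.4 ± 4.41, SD, n = 3). At 0.03 and 0.1 µg/kg, the mice had 58.4, 64.7 and 57.2 CPM and 56.0, 56.3 and 57.5 CPM, within or just below the vehicle range. At 0.3 µg/kg, the 3 mice had 55.4, 38.5 and 41.8 CPM (mean 45.2 ± 8.95), all below every vehicle mouse, as were 8.49% of all genes tested at that dose.

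At 1 µg/kg, the *Arntl* level was 13.8, 34.1 and 19.8 CPM (mean 22.6 ± 10.4), the first of these in mouse 41. The difference from vehicle was −1.43 (SE 0.321) on the log2 scale, a level 37.4% of the vehicle mean. At 3 µg/kg, the mice had 15.6, 14.3 and 11.8 CPM, 23.0% of the vehicle mean. All mice at 1 and 3 µg/kg lay below all vehicle mice, which was true of 10.2% and 12.1% of all genes.

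At 10 µg/kg, *Arntl* had 12.8, 14.2 and 9.33 CPM, and the 30 µg/kg mice had 9.02, 8.43 and 12.5 CPM. The log2 fold changes at 3, 10 and 30 µg/kg were −2.12 (SE 0.334), −2.31 (SE 0.338) and −2.60 (SE 0.346), the last a 6.05-fold lower level. These groups also lay wholly below vehicle, as did 11.8% and 13.3% of all genes at 10 and 30 µg/kg. Among the 16741 genes tested, 52 had a lower log2 fold change than *Arntl* at 30 µg/kg and 29 at 3 µg/kg.

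Within the second index use, the *Arntl* groups at 3, 10 and 30 µg/kg overlapped each other. The log2 difference was −0.47 (SE 0.356) for 30 against 3 µg/kg, −0.19 (SE 0.349) for 10 against 3 µg/kg and −0.28 (SE 0.36) for 30 against 10 µg/kg. Within the first index use, the lowest levels were those of mouse 41 and mouse 14. In bulk tissue, fewer cells of a type and less RNA per cell cannot be told apart, and this holds for every level given here.

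Mouse 14 set the spread of *Arntl* at 0.01 µg/kg. The 3 mice had 63.5, 55.2 and 15.7 CPM (mean 44.8 ± 25.5), and the log2 fold change was −0.43 (SE 0.311) with mouse 14 and −0.03 without it. The other two mice of this group lay within or just below the vehicle range.

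*Npas2*, which can take the place of CLOCK beside BMAL1, was also lower from 1 µg/kg, by less than *Arntl*. Vehicle mice had 86.9, 87.9 and 70.3 CPM (mean 81.7 ± 9.86, n = 3). At 0.1 µg/kg, the mice had 108, 96.6 and 91.4 CPM (mean 98.7 ± 8.49), all above every vehicle mouse, as were 7.01% of all genes. The log2 fold change there was 0.27 (SE 0.281). At 0.03 and 0.3 µg/kg, *Npas2* ranged from 70.2 to 84.1 CPM, against 70.3 to 87.9 CPM in vehicle mice.

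At 1 µg/kg, the *Npas2* levels were 33.8, 48.8 and 34.1 CPM. The 3 µg/kg mice had 35.7, 44.6 and 27.0 CPM. At 10 µg/kg they were 31.0, 31.2 and 32.9 CPM, and 30 µg/kg gave 16.4, 41.9 and 37.0 CPM. Every mouse at these 4 doses lay below every vehicle mouse, as held for 10.2%, 12.1%, 11.8% and 13.3% of all genes. The 4 groups overlapped each other, except that the 1 µg/kg mice all lay above the 10 µg/kg mice. The log2 fold changes were −1.07 (SE 0.288), −1.19 (SE 0.29), −1.36 (SE 0.292) and −1.36 (SE 0.293), and the mean at 30 µg/kg was 38.9% of the vehicle mean.

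Within the second index use, *Npas2* differed little between doses, with a log2 difference of −0.17 (SE 0.294) for 30 against 3 µg/kg and 0.00 (SE 0.296) for 30 against 10 µg/kg. Mouse 65 (30 µg/kg, replicate 1) had the lowest *Npas2* of all 27 mice. Without it, the log2 fold change at 30 µg/kg was −1.05. At 0.01 µg/kg, the mice had 97.6, 83.9 and 31.8 CPM, the last in mouse 14, and the log2 fold change was −0.20 (SE 0.283) with mouse 14 and 0.15 without it.

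*Clock*, the third activator, encodes the partner of BMAL1 with histone acetyltransferase activity. Its level ranged from 115 to 163 CPM over the 27 mice, a 1.42-fold range, against 7.74-fold for *Arntl* and 6.58-fold for *Npas2*. Vehicle mice had 143, 129 and 133 CPM (mean 135 ± 7.41, n = 3), and those given 30 µg/kg had 132, 151 and 126 CPM (mean 137 ± 13.0). The 3 mice at 0.1 µg/kg, with 163, 146 and 145 CPM, lay above all vehicle mice, as did 7.01% of all genes, and the groups at the other doses overlapped vehicle.

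The log2 fold changes of *Clock* ran from −0.10 at 10 µg/kg to 0.17 at 0.1 µg/kg, each with an SE of 0.113. Mouse 14 had 132 CPM of *Clock*, inside the range of vehicle mice. The sign at 30 µg/kg depended on scaling, with 0.02 after TMM scaling and −0.11 by library size alone, which moved the median of all genes from 0.02 to −0.11. With index use as a covariate, which rests on the 3 mice of 1 µg/kg, the estimates at 3, 10 and 30 µg/kg were −0.46, −0.48 and −0.37 (SE 0.186, 0.187 and 0.186).

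**Figure D1:**
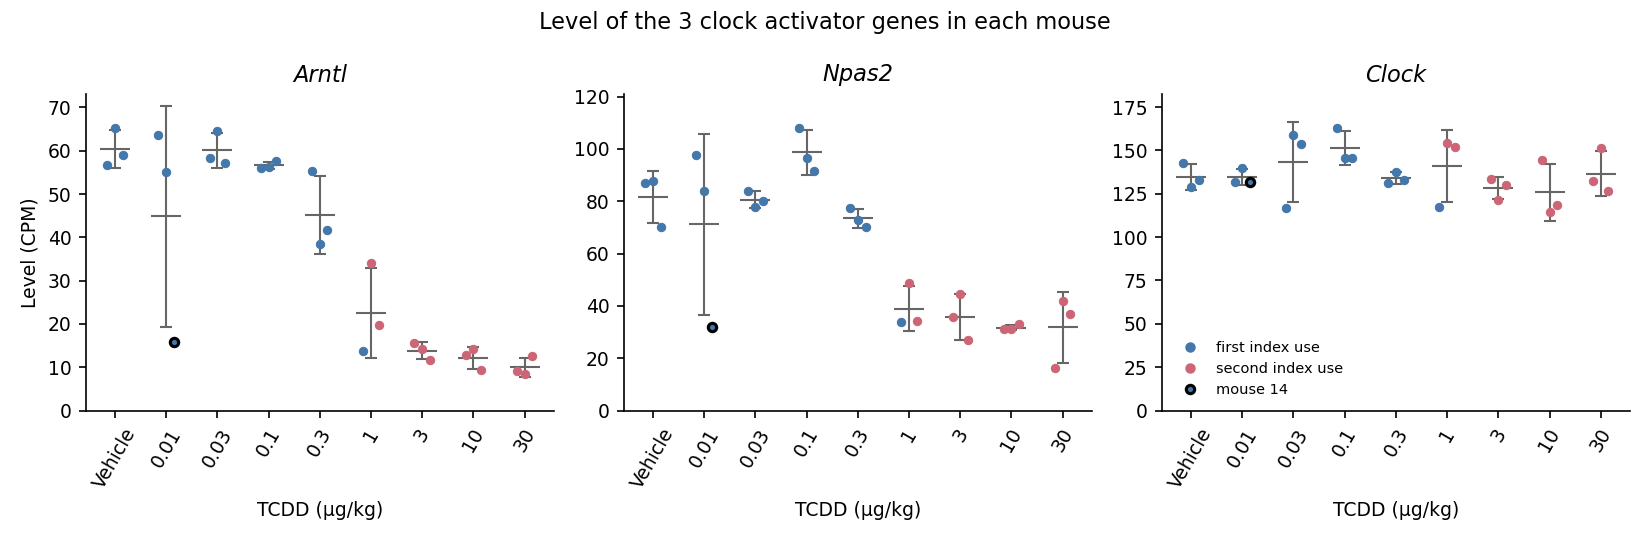
Level of *Arntl*, *Npas2* and *Clock* in each of 27 mice (CPM, linear axes from 0) by TCDD dose, with horizontal bars and whiskers for the mean ± SD of 3 mice. Colours give the library index use and a black ring marks mouse 14. *Arntl* lay between 8.43 and 15.6 CPM at 3 to 30 µg/kg and between 56.7 and 65.3 CPM in vehicle mice, while *Clock* showed no such step.

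**Figure D2:**
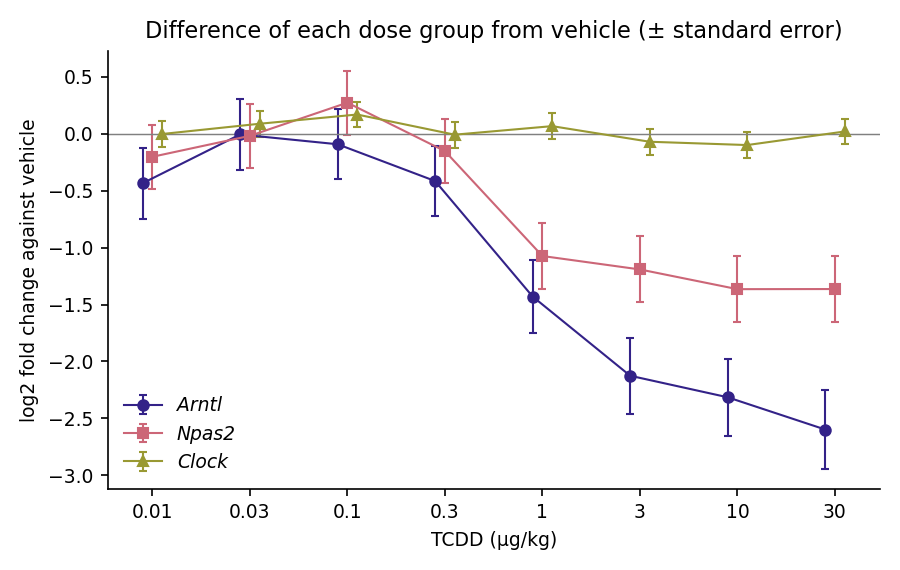
Log2 fold change of the 3 genes at each TCDD dose against vehicle (points) with the standard error from the edgeR fit (bars). *Arntl* reached −2.60 and *Npas2* −1.36 at 30 µg/kg, and *Clock* stayed between −0.10 and 0.17.

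Each of these contrasts shares the same 3 vehicle mice, so the log2 fold changes at different doses are not independent of each other. The order of the levels was vehicle, 0.03, 0.1, 0.3, 0.01, 1, 3, 10 and 30 µg/kg for *Arntl*, and neighbours in it overlapped except 0.1 and 0.3 µg/kg. For *Npas2*, the order was 0.1, vehicle, 0.03, 0.3, 0.01, 1, 3, 30 and 10 µg/kg, and the neighbours that did not overlap were 0.1 µg/kg and vehicle, and 0.03 and 0.3 µg/kg. For *Clock*, all neighbours overlapped. For *Arntl* and *Npas2*, the place of 0.01 µg/kg and its overlap with 1 µg/kg rested on mouse 14. Without that mouse, *Arntl* was at least 38.5 CPM from vehicle to 0.3 µg/kg and at most 34.1 CPM from 1 µg/kg. For *Npas2*, these values were 70.25 and 48.8 CPM. The share of all genes with such a gap was not computed.

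Compared per length, the balance between the activators differed between vehicle and the upper doses. Per kb of all annotated exons, vehicle mice had levels of 17.1 ± 2.06 CPM per kb for *Npas2*, 9.82 ± 0.54 for *Clock* and 8.03 ± 0.586 for *Arntl* (n = 3 each). At 30 µg/kg, the levels were 6.63 ± 2.83, 9.95 ± 0.947 and 1.33 ± 0.295 CPM per kb. By this length, the level of *Npas2* was the highest in each vehicle mouse and that of *Clock* the highest in each mouse at 30 µg/kg.

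The order in vehicle mice depended on the length used. Per kb of the longest coding transcript (2976 bases for *Arntl*, 4236 for *Npas2* and 9744 for *Clock*), vehicle mice had 20.3 ± 1.48 CPM per kb for *Arntl*, 19.3 ± 2.33 for *Npas2* and 13.8 ± 0.761 for *Clock*. At 30 µg/kg, they had 3.36 ± 0.746, 7.50 ± 3.20 and 14.0 ± 1.33 CPM per kb. In vehicle mice, *Arntl* and *Npas2* then differed by less than their SDs. *Clock* was highest at 30 µg/kg by both lengths, and *Arntl* lowest. Which isoforms these mice expressed was not measured.

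Ratios within a mouse do not change in relative terms with the choice of length. Per kb of exons, the ratio of *Clock* to *Npas2* was 0.511 to 0.659 in vehicle mice, against 1.19 to 2.81 at 30 µg/kg, and that of *Clock* to *Arntl* was 1.08 to 1.38, against 5.53 to 9.83. The ratio of *Npas2* to *Arntl* was 1.87 to 2.40 in vehicle mice, against 2.85 to 7.81 at 30 µg/kg. The ranges of vehicle and 30 µg/kg did not overlap for any of the 3 ratios. The ratios restate the fold changes of these selected genes and are no further result. The share of all gene pairs without such overlap was not computed.

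**Figure D3:**
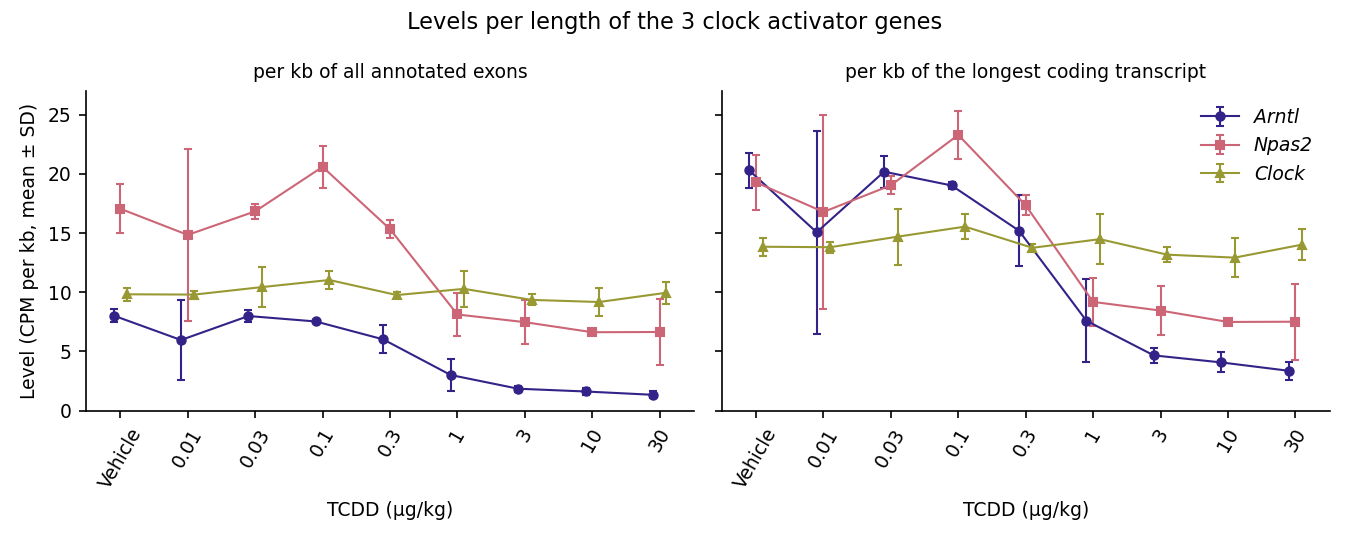
Mean level ± SD (n = 3 mice) of the 3 genes in CPM per kb, by TCDD dose, per kb of all annotated exons (left) and of the longest coding transcript (right), on axes from 0. In vehicle mice *Arntl* was lowest on the left at 8.03 CPM per kb and highest on the right at 20.3 CPM per kb, and *Clock* was highest at 30 µg/kg in both.

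The genes around the activators were described from 7 lists of 41 genes, called the clock lists here, all of which passed the filter on low counts. Beside genes of the clock, they hold 7 other bHLH-PAS genes, among them *Ahr*, *Arnt* and *Ahrr*, the gene of the AhR repressor. The lists were drawn up with earlier results of these data known, so their counts are not independent evidence. A gene passed where its edgeR p, adjusted over all genes, was 0.05 or less and its level differed 1.5-fold or more. At 30 µg/kg, 15 of the 41 rose and 3 fell, against 9.4% of all genes tested in either direction (5.42% higher and 3.98% lower). At 1 µg/kg, 7 rose and 2 fell, against 0.591% of all genes (0.4% higher and 0.191% lower). At 3 µg/kg, 10 rose and 2 fell, against 1.11% (0.645% and 0.46%), and for 10 µg/kg the numbers were 12 and 2, against 2.53% (1.76% and 0.771%). The other bHLH-PAS genes gave 1 of the genes that rose at each of these 4 doses, *Ahrr*, and 1 of those that fell at 30 µg/kg, *Arnt2*.

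At the 4 doses of 0.3 µg/kg and below, 0 of 41 list genes and 0% of all genes passed with edgeR. There, 5 to 9 list genes had an unadjusted edgeR p under 0.05, against 591 to 1247 of all 16741 genes. DESeq2 called 2 list genes at 0.01 µg/kg, 1 at 0.3 µg/kg and 0 at 0.03 and 0.1 µg/kg. Over all genes, it called 3 at 0.01 µg/kg, 18 at 0.3 µg/kg, and 0 and 5 at 0.03 and 0.1 µg/kg. The 0.01 µg/kg group includes mouse 14. By library size alone, 604 genes were higher and 1048 lower at 30 µg/kg in place of 908 and 666, while the list count stayed at 15 and 3.

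The count at 1 µg/kg rested on single mice. It was 2 of 41 without vehicle replicate 3, and 5 without vehicle replicate 1, without replicate 1 or without replicate 3 of 1 µg/kg. With index use as a covariate, the counts at 1, 3, 10 and 30 µg/kg were 5, 2, 7 and 12. Without mouse 14, they were 9, 13, 14 and 18.

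Most repressors of the activators rose. Of the 8 genes of the negative limb, 5 rose and 1 fell at 30 µg/kg, with a median log2 fold change of 2.099 against 0.02 over all genes. *Per3*, a period gene, had 5.35 to 6.64 CPM in vehicle mice, against 86.2, 127 and 93.3 CPM at 30 µg/kg. Its log2 fold change was 4.09 (SE 0.431, adjusted p = 1.68e-06). *Per2*, whose product inhibits the BMAL1 heterodimer, had 19.7 to 21.8 CPM in vehicle mice, against 121, 160 and 139 CPM at 30 µg/kg, a 6.7-fold higher level (adjusted p = 4.56e-07). For both genes, all mice at 30 µg/kg lay above all vehicle mice, as held for 13.7% of all genes.

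*Per1* rose at 10 and 30 µg/kg, and *Cry2* and *Ciart*, a repressor also called CHRONO, rose from 3 µg/kg. *Cry1* was the 1 gene of the negative limb that fell. It had 43.0 to 51.4 CPM in vehicle mice, against 16.3, 21.5 and 23.4 CPM at 30 µg/kg, with log2 fold changes of −1.19, −1.33, −1.40 and −1.17 at 1, 3, 10 and 30 µg/kg (adjusted p = 0.0406, 0.0133, 0.00558 and 0.00575). *Bhlhe40* and *Bhlhe41*, E-box repressors, did not pass at any dose.

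Both REV-ERB genes, which encode repressors of *Arntl*, rose from 1 µg/kg. *Nr1d1* had 5.28, 11.4 and 2.77 CPM in vehicle mice, and its mean was 162 CPM at 1 µg/kg, against 105 CPM at 30 µg/kg. The log2 fold change was 4.66 (SE 0.682, adjusted p = 0.00224) at 1 µg/kg and 4.02 (SE 0.671, adjusted p = 0.000266) at 30 µg/kg. At 0.1 and 0.3 µg/kg, its 6 mice had 24.2 to 88.2 CPM, above every vehicle mouse, as were 7.01% and 8.06% of all genes. The log2 fold changes there were 2.02 and 3.34 and did not pass with edgeR (adjusted p = 0.574 and 0.161). DESeq2 called 1 of the 5 REV-ERB and ROR genes at 0.3 µg/kg and 0 at 0.1 µg/kg, against 18 and 5 of all 16741 genes.

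*Nr1d2* rose by 2.76 (SE 0.45) at 1 µg/kg and by 3.39 (SE 0.458) at 30 µg/kg on the log2 scale. *Rora* and *Rorb*, whose products activate *Arntl*, did not pass. The log2 fold change of *Rora* at 30 µg/kg was −0.42 (SE 0.176, adjusted p = 0.103).

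The PAR bZip genes, which act on D-boxes, rose, and *Nfil3*, which competes with them, fell, so that all 4 genes of this list passed at 30 µg/kg. *Dbp*, a direct target of the BMAL1 heterodimer, had 0.346 to 0.634 CPM in vehicle mice, against 39.0, 55.8 and 29.5 CPM at 30 µg/kg. Its log2 fold change was 6.29 (SE 0.978, adjusted p = 0.000126). *Tef* rose from 10.46 ± 2.48 to 158 ± 44.7 CPM (adjusted p = 1.31e-05), and *Hlf* rose at 10 and 30 µg/kg. *Nfil3* fell from a vehicle level of 26.9 ± 3.42 CPM to 5.38 ± 0.781 CPM at 30 µg/kg, by 2.32 on the log2 scale (SE 0.447, adjusted p = 0.001), and had passed from 1 µg/kg.

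The other lists moved less. Of 4 clock-controlled outputs, *Usp2*, a deubiquitinase gene, rose from 3 µg/kg and *Wee1*, a kinase gene of the cell cycle, at 30 µg/kg, by 0.98 (SE 0.157) and 0.97 (SE 0.229) on the log2 scale. None of 6 co-regulators passed with edgeR, DESeq2 or limma, and their log2 fold changes at 30 µg/kg ran from −0.13 to 0.37. At that dose, 2 of them had an unadjusted edgeR p under 0.05, as had 5230 of all 16741 genes. Of these 2, *Sirt1*, a deacetylase gene, had an adjusted p of 0.0159 with a 1.29-fold higher level, under the fold limit.

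Among the 7 other bHLH-PAS genes, *Ahrr*, the AhR repressor, rose from 1 µg/kg with edgeR and reached a log2 fold change of 4.90 (SE 0.162) at 30 µg/kg. At 1 µg/kg, its level was 1.65-fold higher (edgeR adjusted p = 0.0452). DESeq2 called 0 of these 7 genes at that dose, against 168 of all 16741 genes. *Arnt2* fell at 30 µg/kg by 1.43 (SE 0.32, adjusted p = 0.00332). *Ahr* and *Arnt*, which encode the receptor of TCDD and its partner, had log2 fold changes of 0.30 (SE 0.126, adjusted p = 0.102) and 0.18 (SE 0.083, adjusted p = 0.142). *Arntl2*, the paralogue of *Arntl*, was low, with 1.31 ± 0.323 CPM in vehicle mice, against 0.842 ± 0.144 CPM at 30 µg/kg, and did not pass (log2 fold change −0.63, SE 0.469, adjusted p = 0.387).

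**Figure D4:**
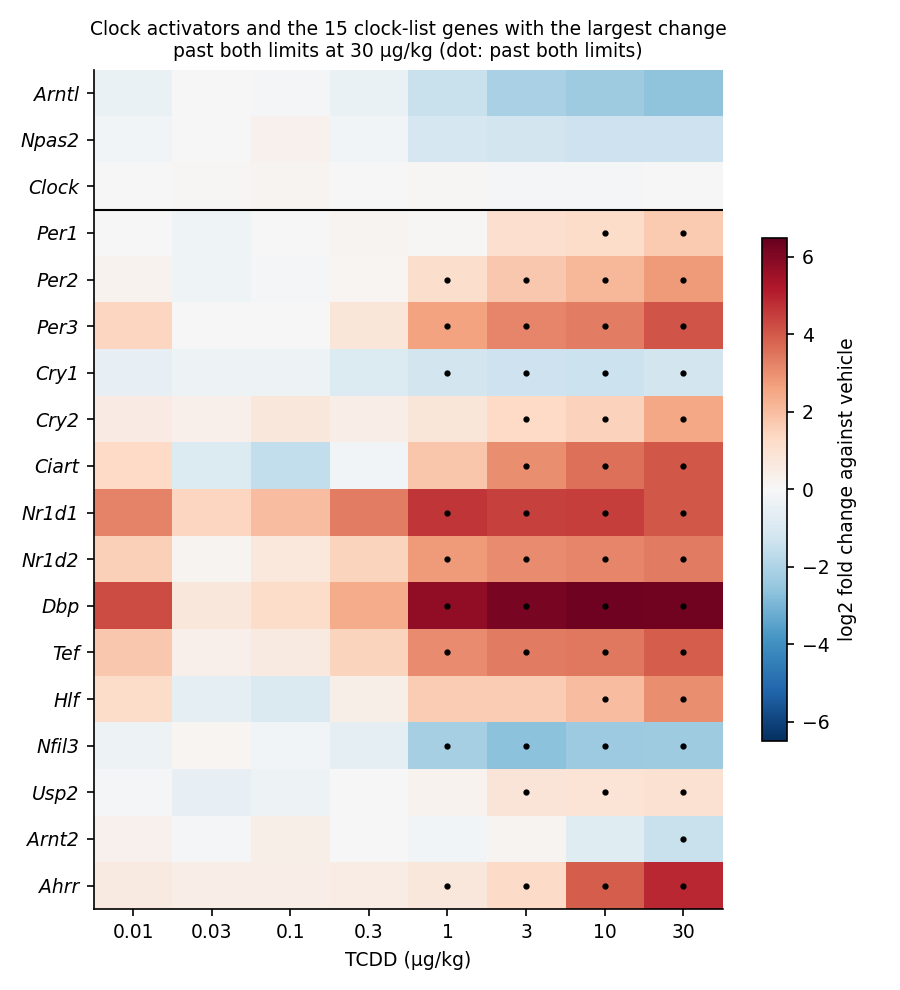
Log2 fold change against vehicle (colour, red higher, blue lower) at each TCDD dose for the 3 activators (above the line) and the 15 list genes with the largest change among those that passed at 30 µg/kg. Dots mark values that passed, with none drawn for the activators. The largest value was 6.31 for *Dbp* at 10 µg/kg, and *Cry1*, *Nfil3* and *Arnt2* were the list genes below 0 with a dot.

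The genes whose levels were most like those of each activator were ranked by Pearson's r of log2 CPM over the 27 mice, which share doses and index uses. For *Arntl*, the highest were *St5* (r = 0.978), *Cdcp1*, *Ier5*, *Sema6d* and *Nol4l* (0.958), and the lowest were *Per3* (−0.980), *Cipc*, *Tef*, *Dbp* and *Ciart* (−0.961). All 5 of the lowest except *Cipc*, which encodes an inhibitor of CLOCK, were on the clock lists. Between *Arntl* and *Nfil3* r was 0.944, and between *Arntl* and *Cry1* it was 0.858.

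For *Npas2*, the highest were *Tut7* (0.937), *Cdcp1*, *Ypel2*, *Arntl* (0.928) and *Ier5*, and the lowest were *Per3* (−0.910), *Cipc*, *Dbp*, *Lrig3* and *Ciart* (−0.886). For *Clock*, the highest were *Tlk1* (0.856), *Yes1*, *Phactr2* and *Cspp1* (0.786), and the lowest were *Usp22* (−0.742), *Paox*, *Apopt1*, *C1qtnf6* and *Cfap20* (−0.674). None of these genes was among those of the other two activators, and r was 0.352 between *Arntl* and *Clock* and 0.347 between *Npas2* and *Clock*. With the group means removed, r between *Arntl* and *Npas2* was 0.711, and between *Arntl* and *Per3* it was −0.869. Both values include mouse 14, which lay farthest of all mice from its group mean in each of these genes. They rest in large part on that mouse and were not computed without it.

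**Figure D5:**
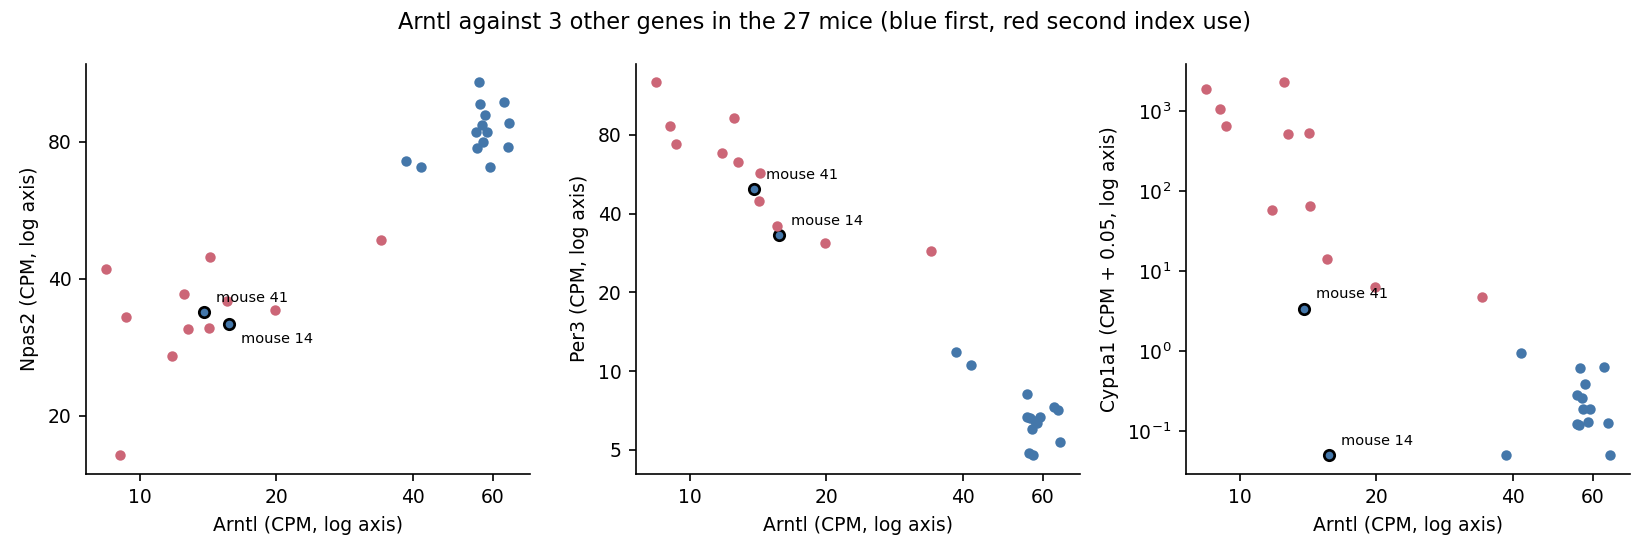
Level of *Arntl* (CPM, log axis) against *Npas2*, *Per3* and *Cyp1a1* (CPM, log axes, with 0.05 added for *Cyp1a1*) in 27 mice, blue for the first and red for the second index use. Mice 14 and 41, ringed, lay with the second index use for *Npas2* and *Per3*, and mouse 14 had 0 counts of *Cyp1a1*.

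Mouse 14 shared the pattern of the upper doses in most of these genes. Of the 15 list genes that rose at 30 µg/kg, it lay above all 14 other mice of vehicle to 0.3 µg/kg for 10, against 7.85% of all genes tested. Of the 3 that fell, it lay below them for *Cry1* and *Nfil3*, with 15.7 and 4.47 CPM, against 7.71% of all genes tested. It had 149 CPM of *Nr1d1*, 27.6 CPM of *Dbp* and 33.1 CPM of *Per3*, against at most 88.2, 4.94 and 11.9 CPM in the other 14 mice. *Ahrr*, which rose from 1 µg/kg, was 3.59 CPM in mouse 14, inside the range of the others (2.27 to 3.83 CPM).

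Among the tested markers of other cell types, only those of plasma and B cells passed with edgeR, at 10 and 30 µg/kg. Paneth cell markers summed to 992 to 2300 CPM in vehicle mice, against 1135 to 2000 CPM at 30 µg/kg. T cell sums were 48.9 to 52.2 CPM, against 34.6 to 61.8 CPM, and fibroblast sums 73.35 to 150 CPM, against 38.8 to 95.6 CPM. The 4 goblet cell markers summed to 20700 to 23400 CPM in vehicle mice, against 29090 to 31720 CPM at 30 µg/kg. None of them passed with edgeR, DESeq2 or limma, and all 4 had an unadjusted edgeR p under 0.05 at 30 µg/kg, as had 5230 of all 16741 genes. The 4 plasma and B cell markers summed to 217 to 353 CPM in vehicle mice, against 64.35 to 132 CPM at 30 µg/kg, where 2 of 4 fell. Smooth muscle markers varied within groups (25.0 to 110 CPM in vehicle mice, against 36.2 to 345 CPM at 30 µg/kg), and the 4 exocrine pancreas markers were at 0 in every vehicle mouse. Their sum reached 23.52 CPM in mouse 52 (3 µg/kg) and 1.63 CPM in mouse 68 (30 µg/kg), and was below 1 CPM in every other mouse. The part of these cells in the levels of *Arntl* and *Npas2* was not tested. In mouse 14, the goblet cell, plasma and B cell and smooth muscle sums were 19990, 334 and 170 CPM. These lay within the range of the other mice given vehicle or 0.3 µg/kg or less.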

How the data were processed

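RNA was measured by RNA-Seq in 27 mice, each labelled with its dose and mouse number. The authors aligned reads to GRCm38 and deposited, for each mouse, unnormalized counts of reads by Ensembl gene. The submitters' processing notes list FastQC 0.11.3, Trimmomatic 0.33, TopHat2 2.1.0, SAMtools 1.2.0 and HTSeq 0.6.1, and the strand setting of the counting is not given in the sources used here. Reads matching no counted feature (44.48% to 49.52%) were left out of library sizes. Of 27 pairs of mice of 1 group, 0 agreed within sampling noise.

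Counts were fitted with edgeR 4.0.16 (R 4.3.3), using filterByExpr, TMM, and the quasi-likelihood test with 9 groups and no covariate. The Benjamini-Hochberg adjustment ran over 16741 genes within each dose. The study's P1(*t*) criterion was replaced by the adjusted p (at most 0.05, with a fold change of at least 1.5). Standard errors come from that fit. Log2 CPM used a prior count of 2. Tests treat mice as independent, although cage-mates may share effects. The fit was tested on simulated data. Alternatives were DESeq2 1.42.0, limma 3.58.1 after quantile normalization, other scalings and filters, fits of the 6 mice compared, index use as a covariate, and leaving out each mouse. Index use was read from the index in each deposited name and counted by mouse number, and whether it marks a sequencing pool is not given in the sources used here.

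The 3 genes, the lists and the tests were chosen with earlier results of these data known. Named are the 3 genes, the 15 list genes with the largest change among those past both limits at 30 µg/kg, the 5 genes most and the 5 least like each activator, and *Cyp1a1*. *Wee1*, *Sirt1*, *Rora*, *Arntl2*, *Ahr*, *Arnt* and other list genes with values, *Fabp6*, and *Rorb*, *Bhlhe40* and *Bhlhe41* were named after their values were seen. Some genes of the lists and of the rankings by likeness are not reported here.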

Additional observations from a re-analysis of the deposited data

How the results depend on the processing

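No paired analysis was possible because the labels carry no replicate number, and the numbers 1 to 3 used here, given in accession order within a group, only name the mice. The log2 fold changes of *Arntl* and *Npas2* at 1 to 30 µg/kg stayed negative in every alternative run. With index use as a covariate, estimated from the 3 mice of 1 µg/kg alone, *Arntl* was −2.12, −3.08, −3.27 and −3.55 at 1, 3, 10 and 30 µg/kg, *Clock* −0.20, −0.46, −0.48 and −0.37, and *Npas2* −1.48 and −1.66 at 3 and 10 µg/kg. The clock-list counts were then 5, 2 and 7 and the counts over all genes 31, 6, 48 and 482, against 99, 185, 423 and 1574 without the covariate. By library size only, *Clock* was −0.11 at 30 µg/kg, and 36.6% of the genes past both limits there were higher, against 57.7% after TMM. That share was 46.1% against 58.4% at 3 µg/kg, and 56.0% against 67.7% at 1 µg/kg with DESeq2. Over all genes, the counts were 169 and 308 at 1 and 3 µg/kg with no filter, 168 at 1 µg/kg with DESeq2, 344 and 656 at 3 and 30 µg/kg in fits of 6 mice, and 151, 285, 636 and 2976 at the 4 doses with no fold change limit. The cause of these differences was not tested.

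Leaving out 1 mouse at a time gave 2 to 7 clock-list genes at 1 µg/kg, 8 to 12 for 3 µg/kg, 12 to 13 for 10 µg/kg, then 15 to 19 for 30 µg/kg. Over all genes it gave 12 to 107, 69 to 224, 213 to 452 and 871 to 2473. The lowest counts came without vehicle replicate 3 at 1 µg/kg, replicate 3 of the dose at 3 and 10 µg/kg, and replicate 2 of the dose at 30 µg/kg, and the highest at 30 µg/kg without replicate 1. Counts also moved by over 1.5 times without vehicle replicate 1 (31, 90 and 226 at 1, 3 and 10 µg/kg), without vehicle replicate 3 (73, 215 and 980 at 3, 10 and 30 µg/kg), without replicate 1 or replicate 3 of 1 µg/kg (56 each) and without replicate 2 of 3 µg/kg (101). At 1 and 30 µg/kg, *Arntl* ranged from −1.85 to −1.17 and from −2.81 to −2.51, and *Npas2* from −1.27 to −0.98 and from −1.64 to −1.05.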

Other observations

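In 4 of the 9 groups, the order of the 3 mice by *Arntl* was the reverse of their order by *Nr1d2*, the gene of the *Arntl* repressor REV-ERBβ. At 0.3 µg/kg, *Arntl* was 55.4, 38.5 and 41.8 CPM where *Nr1d2* was 30.4, 50.8 and 40.4 CPM in the same mice. At 1 µg/kg, *Arntl* was 13.8, 34.1 and 19.8 CPM where *Nr1d2* was 125, 81.01 and 98.9 CPM, and at 10 µg/kg *Arntl* was 12.8, 14.2 and 9.33 CPM where *Nr1d2* was 126, 122 and 162 CPM. The fourth was the 0.01 µg/kg group, with 63.5, 55.2 and 15.7 CPM of *Arntl* and 14.4, 16.9 and 97.2 CPM of *Nr1d2*, the last of each in mouse 14. The order was not reversed in the vehicle, 0.03, 0.1, 3 and 30 µg/kg groups, where, for example, vehicle mice had 56.7, 65.3 and 59.1 CPM of *Arntl* and 14.7, 18.0 and 12.3 CPM of *Nr1d2*. These groups were compared after their values were seen. The share of all genes with such reversed orders was not computed. Over all groups with the means removed, r between *Arntl* and *Nr1d2* was −0.872 (27 mice, 3 per group, mouse 14 included). That value rests in large part on mouse 14 and was not computed without it.

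For *Npas2* and *Per3*, r was −0.910 over the 27 mice and −0.570 with the group means removed, mouse 14 included in both. Mouse 65, which had the lowest *Npas2* at 30 µg/kg (16.4 CPM), had 9.02 CPM of *Arntl*, between the values of the other two mice of its group.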
